A study of Mus musculus with 27 samples.

Results

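Sox genes of the neural and neural crest lineages were followed in RNA-seq data of J1 cells, a mouse ESC line, in which Gas41 had been knocked down or which had been differentiated as embryoid bodies (EBs). The members were chosen by symbol from a list of 10 Sox genes, and 9 of them, Sox3, Sox4, Sox5, Sox6, Sox8, Sox9, Sox10, Sox11 and Sox21, were listed in all 3 deposited count tables, which together held 27080 genes. Sox1 is not analysed here. The series held 27 samples, and its 12 RNA-seq libraries in 5 groups were used. All were J1 cells that carried a lentiviral short hairpin RNA (shRNA). The first group expressed a control hairpin (shCon, 3 libraries), and the knockdown (KD) groups expressed shGas41-1 (3 libraries) or shGas41-2 (2 libraries), harvested 8 days after infection and selected with puromycin. The EB groups carried the control vector and were either undifferentiated cells with LIF (EB day 0, 2 libraries) or EBs grown without LIF in ultra-low attachment plates (EB day 6, 2 libraries). The ESC groups grew on gelatin with serum and LIF and without feeder cells. The cells of one line gave all libraries, so p-values measure only the spread between these libraries, which may in part be technical.

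Sox proteins are transcription factors that bind DNA through an HMG box and fall into subgroups by sequence. SoxB1 proteins such as Sox3 keep neural progenitors undifferentiated, the SoxB2 protein Sox21 counteracts them and favours neuronal differentiation, and the SoxC proteins Sox4 and Sox11 act in differentiating neurons and in many other embryonic tissues. The SoxD proteins Sox5 and Sox6 lack an activation domain and modulate other Sox proteins in cartilage and glia, and the SoxE proteins Sox8, Sox9 and Sox10 drive the formation of the neural crest and its glial, pigment and cartilage derivatives.

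The targets of the hairpins are shown because the comparison of shGas41-1 with shGas41-2 rests on them. Both sites lay in Yeats4, the gene that encodes Gas41, on the minus strand of chromosome 10 of the mm9 genome. The site of shGas41-1, at chr10:116652513-116652533, lay in the last of 7 exons, number 7, within the 3' UTR, and that of shGas41-2, at chr10:116659320-116659340, was in the coding sequence in exon 2 of 7. Neither target had an exact match in the protein-coding transcripts of another gene, the Sox genes included, and noncoding genes were not searched.
shGas41-1: gtagcattccacgacgttaag
shGas41-2: atcgttaagccaatcgtttat

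Yeats4 was measured at 63.2, 54.5 and 52.1 CPM (a count divided by the total of its library and scaled to a common total) in shCon, at 3.50, 4.42 and 4.79 with shGas41-1 and at 8.68 and 7.68 with shGas41-2. It was at 43.6 and 45.8 CPM on EB day 0 and at 46.1 and 50.2 on EB day 6. The KD libraries stood below every control library, at 7.48% and 14.5% of the shCon mean (edgeR's quasi-likelihood test, adjusted p = 0.000375 and 0.000934). The libraries held 59224537 to 81524773 counts, so 3 counts, taken as the smallest measurable amount, corresponded to 0.0368 to 0.0507 CPM. This floor covers counting error only. Replicate 3 of shGas41-1 stood apart from its group over all genes, with a chi-square of 134 and 219 per degree of freedom against the other replicates where other pairs of replicates gave 27.3 to 75.9. A gene was called up or down where its log2 fold change was 1 or more in size and its p-value, adjusted over all genes tested by the Benjamini-Hochberg method (FDR), was 0.05 or less.

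Promoters are shown for Sox8 and Sox21, which were higher in shGas41-1 cells, and for Sox4 and Sox11, which lay lower with both hairpins. Each is the 250 bases before the RefSeq start of the gene on the minus strand of GRCm38.p6, a different build from that of the counts, with the dinucleotide CG in capitals. The regions are chr17:25570687-25570936 for Sox8, chr14:118237031-118237280 for Sox21, chr13:28953700-28953949 for Sox4 and chr12:27342719-27342968 for Sox11.
Sox8: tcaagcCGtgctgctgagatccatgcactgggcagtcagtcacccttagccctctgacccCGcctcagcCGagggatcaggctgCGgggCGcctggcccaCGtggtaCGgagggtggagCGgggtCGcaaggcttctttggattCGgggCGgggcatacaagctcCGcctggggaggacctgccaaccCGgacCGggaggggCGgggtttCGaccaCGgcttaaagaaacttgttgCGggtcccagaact
Sox21: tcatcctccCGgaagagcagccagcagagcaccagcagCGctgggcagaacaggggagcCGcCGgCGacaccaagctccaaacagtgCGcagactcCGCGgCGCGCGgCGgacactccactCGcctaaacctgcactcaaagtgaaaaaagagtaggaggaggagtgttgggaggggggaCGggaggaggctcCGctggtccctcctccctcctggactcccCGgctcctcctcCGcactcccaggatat
Sox4: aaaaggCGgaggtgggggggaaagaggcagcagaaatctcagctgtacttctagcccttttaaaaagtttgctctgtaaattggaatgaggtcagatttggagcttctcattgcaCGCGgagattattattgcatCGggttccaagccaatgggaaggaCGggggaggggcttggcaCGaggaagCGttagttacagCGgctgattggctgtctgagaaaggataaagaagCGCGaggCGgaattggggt
Sox11: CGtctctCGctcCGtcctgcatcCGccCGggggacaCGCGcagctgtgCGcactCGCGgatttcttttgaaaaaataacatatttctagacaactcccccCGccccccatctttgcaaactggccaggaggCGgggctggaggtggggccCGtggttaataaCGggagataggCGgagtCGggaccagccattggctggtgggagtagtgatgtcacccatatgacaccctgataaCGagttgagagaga

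These promoters held 18, 17, 11 and 17 CG dinucleotides, against a median of 6 (quartiles 2 and 16) over 32851 RefSeq promoters of the same length. The CCAAT box, searched as the letters CCAAT on both strands, occurred 4 times before Sox4, once before Sox11 and not before Sox8 or Sox21, and 33.8% of all promoters held it. TATAAA, searched on both strands and present in 12.4% of all promoters, was in none of these 4 windows. RefSeq entries were found for 6 members, and Sox3, Sox9 and Sox10 had none in the table used.

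In Gas41 KD cells, the SoxB1 gene Sox3 and the SoxE gene Sox8 rose with both hairpins, and Sox9 and Sox21 were called up with shGas41-1 only. The SoxC genes Sox4 and Sox11 lay lower with both hairpins without reaching a 2-fold change. Of these SoxC values, only that of Sox4 with shGas41-2 passed the test of a difference. With shGas41-1, 4 of the 9 members were called up and 0 down, where 7.9% of the 18274 genes tested were called up and 2.4% down. With shGas41-2, 2 of 9 were called up and 0 down, against 3.96% up and 0.869% down of 18405 genes. Unadjusted p-values were under 0.05 for 7 members with shGas41-1 and for 5 with shGas41-2, and DESeq2 also called 0 members down with either hairpin. The median log2 fold change over the 9 members was 1.14 with shGas41-1 and 0.58 with shGas41-2, and over all genes tested it was 0.02 and -0.01. Sox9 with both hairpins and Sox10 with shGas41-1 passed the filter on low counts only through the KD libraries, so a gene of this kind had to be higher in KD cells to be tested, and the counts and medians over the members include them. Since the tables share the shCon libraries, the values of the hairpins are given side by side and are not independent of each other.

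**Figure D1:**
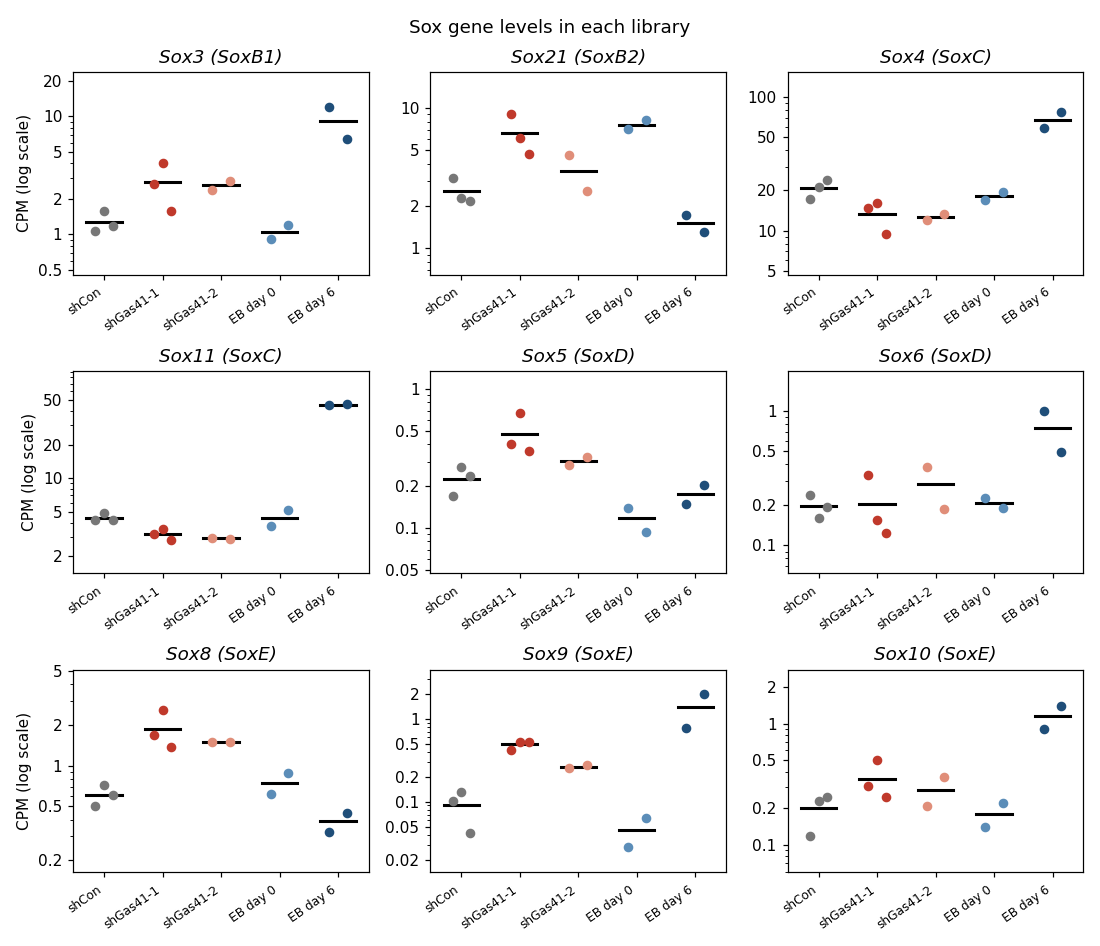
Level of each member in CPM (log axis) in each of the 12 libraries, with points for libraries and bars for group means. Sox3, Sox8 and Sox9 sit above every shCon library in every KD library, and Sox4 and Sox11 sit lower in KD cells and highest on EB day 6.

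Sox3, a single-exon gene at chrX:58144545-58146605 (mm9, minus strand), was measured at 1.06, 1.57 and 1.19 CPM in shCon, at 2.67, 4.01 and 1.59 with shGas41-1 and at 2.38 and 2.85 with shGas41-2. All 5 KD libraries lay above all 3 shCon libraries, although replicate 3 of shGas41-1 exceeded the highest of them only narrowly. The log2 fold change was 1.18 ± 0.32 (SE) with shGas41-1 and 1.11 ± 0.24 with shGas41-2 (edgeR's quasi-likelihood test, adjusted p = 0.0368 and 0.0284). Both calls were close to the threshold. With shGas41-1 the adjusted p rose to between 0.0689 and 0.117 when any single library other than replicate 3 of shGas41-1 was left out, and with shGas41-2 to between 0.0956 and 0.197 without either shGas41-2 library. The adjusted p was also above the threshold with shGas41-1 under scaling by library size alone (0.0529) and with the replicate number as a block (0.0514). With shGas41-2 it was above the threshold when all 8 ESC libraries entered 1 fit (0.0834). The undifferentiated EB day 0 libraries, at 0.911 and 1.19 CPM, were also below every KD library.

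Sox21, at chr14:118632454-118636252 (mm9, minus strand), was at 3.19, 2.29 and 2.17 CPM in shCon, at 9.06, 6.10 and 4.67 with shGas41-1 and at 4.59 and 2.55 with shGas41-2. The shGas41-1 libraries were all above shCon, whereas replicate 2 of shGas41-2 fell within the shCon range. The log2 fold change was 1.44 ± 0.26 with shGas41-1 (adjusted p = 0.00798) and 0.56 ± 0.28 with shGas41-2 (adjusted p = 0.232). The control cells of the EB experiment carried as much Sox21 as the shGas41-1 cells, with 7.05 and 8.16 CPM on EB day 0. EB day 0 exceeded shCon by 1.57 ± 0.20 on the log2 scale (adjusted p = 0.0271), so the level of Sox21 in undifferentiated cells differed between the experiments about as much as it did between shGas41-1 and shCon. Sox21 was the 1 member called of 8 tested between EB day 0 and shCon, where 0.579% of 18134 genes were called. The call was lost (adjusted p between 0.0900 and 0.164) without replicate 2 of shCon or without either EB day 0 library. Over 713 bases, or 18.8% of its exonic length, Sox21 overlaps the antisense gene Gm4675, and reads from the 2 strands cannot be told apart with this unstranded kit. Gm4675 itself had 8 to 24 counts in shCon, 20 to 29 with shGas41-1, 8 to 15 with shGas41-2, 26 to 29 on EB day 0 and 6 to 14 on EB day 6.

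Sox8, at chr17:25702837-25707631 (mm9, minus strand), was at 0.507, 0.721 and 0.608 CPM in shCon, at 1.69, 2.58 and 1.38 with shGas41-1 and at 1.51 and 1.50 with shGas41-2. Every KD library was above every shCon library, and above EB day 0, at 0.616 and 0.879 CPM. The mean level was 3.08 times that of shCon with shGas41-1 and 2.46 times with shGas41-2. The log2 fold changes were 1.69 ± 0.29 and 1.37 ± 0.25 (adjusted p = 0.00648 and 0.0166). Without either library of shGas41-2 the adjusted p of the latter was 0.110 or 0.115.

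Sox9, at chr11:112643538-112649074 (mm9, plus strand), is the SoxE gene that also controls cartilage formation. It had only 6, 9 and 3 counts in shCon, which is 0.101, 0.130 and 0.0414 CPM, against 32, 41 and 34 counts (0.426, 0.524 and 0.525 CPM) with shGas41-1 and 21 and 22 counts (0.258 and 0.275 CPM) with shGas41-2. The groups did not overlap with either hairpin, and EB day 0 was as low as shCon with 2 and 4 counts. The log2 fold change was 2.50 ± 0.43 with shGas41-1 (adjusted p = 0.00659) and 1.63 ± 0.52 with shGas41-2 (adjusted p = 0.088). Sox9 passed the filter on low counts through the KD libraries alone, as no shCon library reached the minimum.

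Sox10, the SoxE gene of glia and pigment cells, at chr15:78985343-78994920 (mm9, minus strand), was at 0.118, 0.231 and 0.249 CPM in shCon, 0.306, 0.498 and 0.247 with shGas41-1 and 0.209 and 0.362 with shGas41-2. The groups overlapped for both hairpins, with log2 fold changes of 0.87 ± 0.41 and 0.58 ± 0.47 (adjusted p = 0.166 and 0.462). With shGas41-1 Sox10 too passed the filter only through the KD libraries.

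Sox4, at chr13:29040788-29045582 (mm9, minus strand), was the member with the highest level per length in shCon. It was measured at 17.3, 21.4 and 23.9 CPM in shCon, at 14.8, 16.1 and 9.39 with shGas41-1 and at 12.0 and 13.4 with shGas41-2. Every KD library was below every shCon and every EB day 0 library, the latter at 17.0 and 19.3 CPM. The log2 fold change was -0.57 ± 0.20 with shGas41-1 (adjusted p = 0.0814) and -0.63 ± 0.16 with shGas41-2 (adjusted p = 0.0459), so the second passed the test of a difference and neither reached 2-fold. An antisense gene, Gm17419, covers 54.6% of the exonic length of Sox4 and is not listed in the tables, so its share of these counts is unknown.

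Sox11, at chr12:28025562-28027574 (mm9, minus strand), was at 4.25, 4.85 and 4.18 CPM in shCon, 3.14, 3.49 and 2.80 with shGas41-1 and 2.93 and 2.85 with shGas41-2. The KD libraries again lay below all shCon libraries and below EB day 0, at 3.73 and 5.15 CPM. The log2 fold change was -0.42 ± 0.17 with shGas41-1 and -0.54 ± 0.16 with shGas41-2 (adjusted p = 0.112 and 0.0715), and Sox11 was therefore not called. In bulk samples, fewer cells that express a gene and less RNA per cell cannot be told apart.

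The SoxD genes were close to the floor. Sox5, at chr6:143776945-144730497, was at 0.169, 0.274 and 0.235 CPM in shCon, 0.399, 0.677 and 0.355 with shGas41-1 and 0.282 and 0.324 with shGas41-2. The groups did not overlap, but the log2 fold changes of 1.14 ± 0.37 and 0.49 ± 0.39 did not pass the test (adjusted p = 0.0616 and 0.443), except that shGas41-1 passed (adjusted p = 0.0453) when all 8 libraries of shCon and both KDs entered 1 fit. Sox6, at chr7:122614858-123182258, was at 0.159 to 0.236 CPM in shCon, 0.124 to 0.333 with shGas41-1 and at 0.380 and 0.187 with shGas41-2, and its groups overlapped (adjusted p = 0.856 and 0.411).

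**Figure D2:**
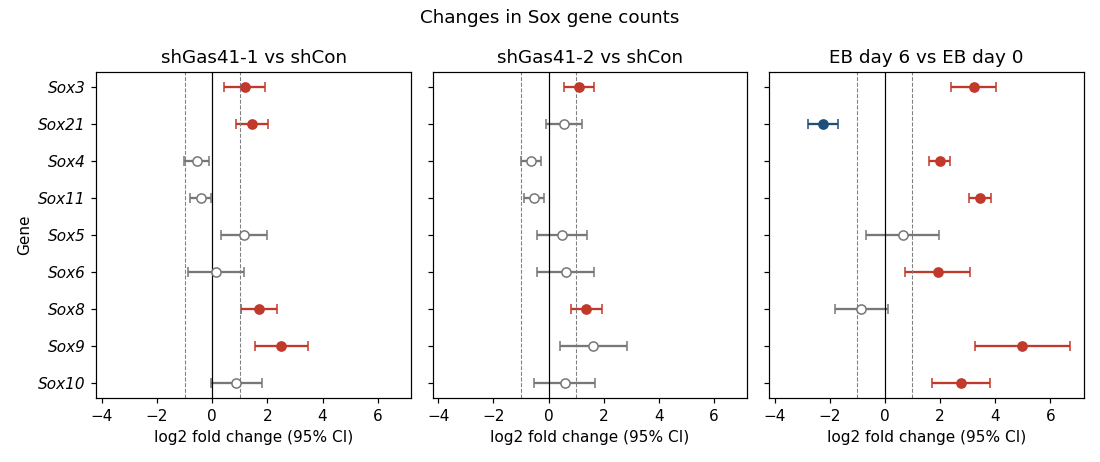
Log2 fold change of each member with its 95% confidence interval for shGas41-1 and shGas41-2 against shCon and EB day 6 against EB day 0, from edgeR's quasi-likelihood fits, with called genes filled (red up, blue down) and dashed lines at a 2-fold change. Sox3 lies to the right in all 3 comparisons, Sox4 and Sox11 lie left of 0 with the hairpins and right of it in EBs, and Sox21 lies right with shGas41-1 and left in EBs.

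Whether the hairpins differed was tested directly in a fit of the 8 ESC libraries. Of 19146 genes, 0 were called between shGas41-1 and shGas41-2 (0.0%) by edgeR's quasi-likelihood test, with 1348 at an unadjusted p under 0.05, and DESeq2 called 37 higher and 32 lower with shGas41-1. Among the members 0 were called, and Sox21 alone had an unadjusted p under 0.05. Its level was higher with shGas41-1 by 0.89 on the log2 scale (95% interval 0.18 to 1.60, adjusted p = 0.602). For Sox9 the difference was 0.88 (interval -0.02 to 1.79), for Sox8 0.32 (-0.30 to 0.94) and for Sox3 0.07 (-0.67 to 0.80). The calls of Sox9 and Sox21 with shGas41-1 alone were thus not shown to be particular to that hairpin, and the intervals also leave room for differences of over 2-fold in Sox9 and Sox21.

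In EBs, the SoxC genes, Sox3, the SoxD gene Sox6 and the SoxE genes Sox9 and Sox10 rose from day 0 to day 6, and Sox21 fell. Of the 9 members tested, 6 were called up and 1 down, where 16.6% of 18287 genes were called up and 14.7% down. The median log2 fold change of the members was 1.98, against -0.0028 over all genes tested. Sox5, Sox9 and Sox10 passed the filter on low counts through the day 6 libraries alone, so the counts of called members include genes that had to be high on day 6 to be tested.

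Sox11 went from 3.73 and 5.15 CPM on day 0 to 44.8 and 45.9 on day 6, a log2 fold change of 3.44 ± 0.17 (adjusted p = 2.04e-05). Sox4 went from 17.0 and 19.3 CPM to 58.4 and 76.8 (1.98 ± 0.16, adjusted p = 0.000106). Both thus moved opposite in sign to their values in KD cells. Of those KD values, only that of Sox4 with shGas41-2 passed the test of a difference. No library of day 6 came near the range of the undifferentiated libraries. Sox3 went from 0.911 and 1.19 CPM to 12.0 and 6.47 (3.21 ± 0.34, adjusted p = 0.000385). The day 6 replicates of Sox3 differed more from each other than its day 0 replicates but stayed well above them.

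Sox9 went from 0.0280 and 0.0628 CPM, or 2 and 4 counts, to 0.784 and 1.98 CPM, or 53 and 136 counts. The log2 fold change of 4.99 ± 0.72 (adjusted p = 0.00136) became 5.63 with an adjusted p of 0.0604 without replicate 3 of EB day 0. Sox10 went from 0.140 and 0.220 CPM to 0.903 and 1.40 (2.76 ± 0.44, adjusted p = 0.00219). The remaining SoxE gene, Sox8, was at 0.616 and 0.879 CPM on day 0 and at 0.326 and 0.451 on day 6, which did not pass the test (-0.85 ± 0.40, adjusted p = 0.106) although the replicates did not overlap. Sox8 was therefore called up in KD cells and not in EBs, where its estimate was negative.

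Sox21 fell from 7.05 and 8.16 CPM to 1.73 and 1.29 (-2.24 ± 0.22, adjusted p = 0.00027). It was the 1 member that was called up with a hairpin and called down in EBs. Sox6 rose from 0.224 and 0.188 CPM to 0.991 and 0.494 (1.92 ± 0.49, adjusted p = 0.0145), but was lost (adjusted p between 0.0777 and 0.136) without either day 0 library or without replicate 2 of day 6. Sox5, at 0.140 and 0.0942 CPM on day 0 and 0.148 and 0.204 on day 6, was not called in any of the 3 comparisons (adjusted p = 0.34 in EBs). Yeats4 itself did not pass the test between the days (0.19 ± 0.09, adjusted p = 0.105).

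The KD response and the EB response of each member were compared in one fit each, as the log2 fold change with a hairpin minus that from EB day 0 to day 6. A difference was called for 7 of the 9 members with each hairpin, where 32.9% of 19502 genes were called for shGas41-1 and 32.2% of 19253 for shGas41-2. Sox11, Sox4, Sox3, Sox9 and Sox10 had lower values in KD cells than in EBs, with differences of -3.90, -2.59, -2.07, -2.52 and -1.93 with shGas41-1. Sox21 and Sox8 were higher by 3.65 and 2.50. The responses of Sox21 started from different levels, as EB day 0 exceeded shCon by 1.57 on the log2 scale. That gap between the control sets enters the difference for Sox21 with either hairpin. With shGas41-2 the same 7 members were called in the same directions. For Sox5 and Sox6 the differences did not pass the test (0.45 and -1.82 with shGas41-1, adjusted p = 0.63 and 0.0553). Of the members called up with shGas41-1, Sox3 and Sox9 were also called up in EBs, Sox8 was not called and Sox21 was called down.

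**Figure D3:**
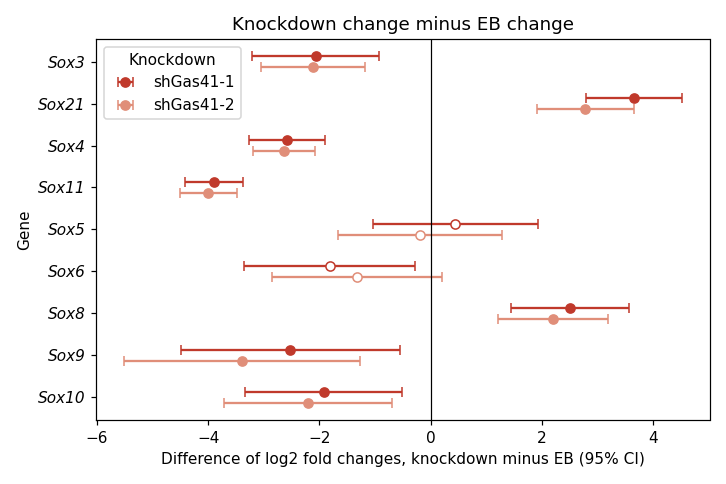
Difference between the KD response and the EB response of each member (log2 units) with its 95% confidence interval, for each hairpin. Values left of 0 mark a larger rise in EBs, as for Sox11 at -3.90 with shGas41-1, and Sox21 and Sox8 lie right of 0 with both hairpins. The values of Sox21 include the gap between its levels on EB day 0 and in shCon.

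Levels were compared between members per length, as RPKM (CPM divided by the length of the exons in kilobases). In shCon the order was Sox4 (mean 4.35 RPKM), Sox11 (2.20), Sox21 (0.671), Sox3 (0.618), Sox8 (0.196), Sox10 (0.0734), Sox6 (0.0222), Sox9 (0.0220) and Sox5 (0.0157). Sox21 and Sox3, and the last 3 genes among themselves, were neighbours whose ranges overlapped, and the other steps were larger than the spread of the libraries. With shGas41-1 the first 5 places were Sox4 (2.80), Sox21 (1.74), Sox11 (1.56), Sox3 (1.34) and Sox8 (0.603), each overlapping the next. With shGas41-2 Sox4 (2.66) was followed by Sox11 (1.43), Sox3 (1.27), Sox21 (0.939) and Sox8 (0.482), and of these neighbours only Sox3 and Sox21 overlapped. On EB day 6 Sox11 (22.5) stood above Sox4 (14.1), then came Sox3 (4.47), and the next 3, Sox10 (0.424), Sox21 (0.398) and Sox9 (0.334), overlapped.

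The summed level of the 9 members overlapped between shGas41-1 and shCon and lay just below shCon with shGas41-2, while the composition differed in both. The sum was 7.36 to 8.61 RPKM in shCon, 6.05 to 9.85 with shGas41-1, 6.99 to 7.02 with shGas41-2, 7.99 to 9.72 on EB day 0 and 41.5 to 43.5 on EB day 6. Of this sum the SoxC genes made up 77.9% to 82.7% in shCon, 50.7% to 55.4% with shGas41-1 and 56.6% to 60.3% with shGas41-2. On EB day 0 the SoxC share was 67.6% to 67.8%, between those of shCon and KD cells, and on day 6 it was 83.1% to 89.2%. The share of the SoxE genes was 3.13% to 4.04% in shCon, 8.29% to 11.5% and 8.88% to 9.73% with the hairpins, 3.20% to 3.89% on EB day 0 and 1.51% to 2.61% on day 6. The KD libraries thus had the highest SoxE shares of the 12 libraries, but not a higher SoxE level than EB day 6. The summed SoxE level was 0.231 to 0.348 RPKM in shCon, 0.659 to 1.14 with shGas41-1 and 0.623 to 0.680 with shGas41-2. It was 0.256 to 0.378 RPKM on EB day 0 and 0.627 to 1.14 on day 6, where the SoxC level was 34.5 to 38.8 RPKM. No test was made on these shares, which combine the values tested above.

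**Figure D4:**
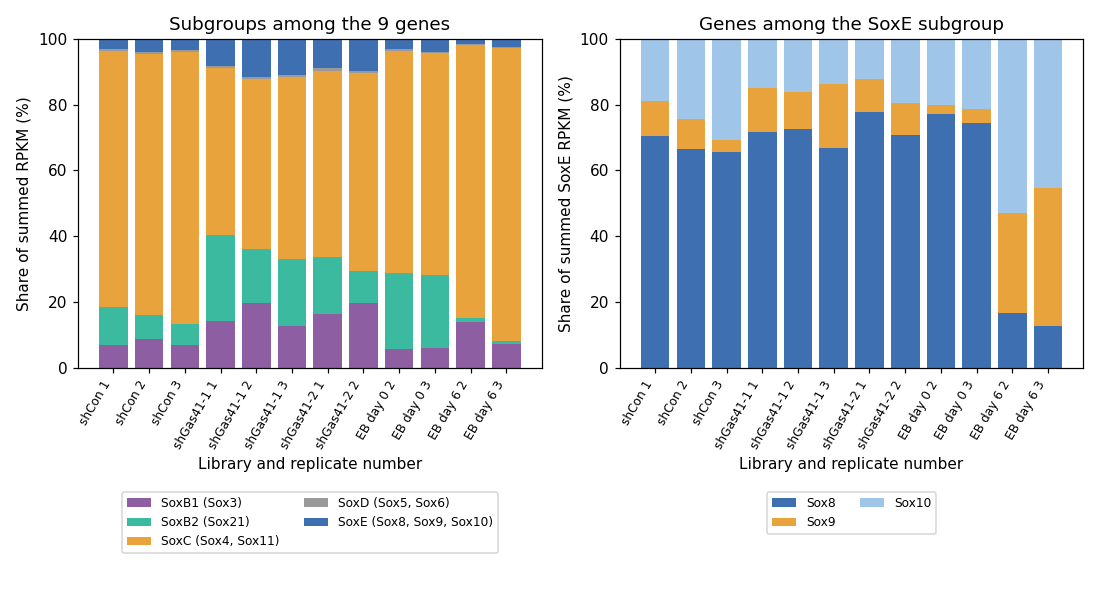
Share of the summed RPKM of the 9 members that each Sox subgroup took in each of the 12 libraries, as stacked bars that add to 100%. The SoxC share is lower in every KD library (50.7% to 60.3%) than in every shCon library (77.9% to 82.7%), and the SoxE share is highest in KD cells.

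Within subgroups, the shares in KD cells lay closer to those of the control cells than to those of EB day 6. Sox8 made up 65.7% to 70.5% of the SoxE level in shCon, 66.9% to 72.7% with shGas41-1, 70.6% to 77.7% with shGas41-2 and 74.6% to 77.2% on EB day 0, against 12.7% to 16.7% on EB day 6. Sox9 made up 3.38% to 10.6% in shCon, 11.1% to 19.3% with shGas41-1 and 9.76% to 10.0% with shGas41-2. On day 6 Sox10 made up 45.2% to 53.1% and Sox9 30.3% to 42.0%. In the SoxC pair Sox11 took 29.4% to 36.9% in shCon, 33.6% to 41.5% with shGas41-1, 33.5% to 36.7% with shGas41-2 and 34.2% to 38.8% on EB day 0, and 58.7% to 64.6% on EB day 6.

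Of the other 9 Sox genes of the tables, 8 were tested with each hairpin. With shGas41-1, 0 were called up by edgeR's quasi-likelihood test, 0 were higher at an unadjusted p under 0.05 and DESeq2 called 0 up. The 0 of 8 is near the 7.9% of all genes called up, and 1 was called down, against 2.4%. With shGas41-2, 1 was called up and 1 down, against 3.96% and 0.869% of all genes. Sox18, a gene of blood and lymph vessel endothelium, fell with both hairpins (-1.29 and -1.21, adjusted p = 0.0326 and 0.0362). On EB day 0 Sox18 was at 0.518 and 0.769 CPM, below every shCon library (0.844 to 1.13). Replicate 2 of shGas41-1, at 0.588 CPM, lay within the EB day 0 range. Sox7, a gene of endoderm and endothelium, rose with shGas41-2 (1.23, adjusted p = 0.0292) and had a value of 0.27 with shGas41-1 (adjusted p = 0.461). It was at 1.05 to 1.53 CPM in shCon and at 2.22 and 3.19 with shGas41-2. The undifferentiated EB day 0 controls, at 2.49 and 2.10 CPM, lay above shCon and overlapped shGas41-2, so the level of Sox7 differed between the control sets too. Sox2, the SoxB1 gene that ESCs require, did not pass the test with either hairpin (-0.28 and -0.22, adjusted p = 0.241 and 0.373). On EB day 6 Sox14 rose, with 0 and 2 counts on day 0 and 46 and 34 on day 6. Sox17 (4.79), a gene of definitive endoderm, rose from 0.182 and 0.330 CPM to 1.91 and 11.3. Its day 6 replicates thus differed widely. Sox2 (-1.93), Sox7 (-3.29) and Sox15 (-2.31) fell. These were 2 called up and 3 down of 9 tested, where 16.6% of all genes were called up and 14.7% down. Sox12, the third SoxC gene, and Sox13, the third SoxD gene, rose in EBs by less than 2-fold (0.68 and 0.95, adjusted p = 0.000556 and 0.000774), and their values in KD cells were negative and did not pass the test.

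Genes of the lineages in which these Sox genes act were counted in lists, and up to 2 called genes with the largest changes are named from each list in each direction. Some passed the filter on low counts only through the group where they were high. Examples are Dlx5 and Neurog1 in KD cells and Tfap2b, Emx2, Dcx and Col9a1 on EB day 6. Such genes had to be higher there to be tested, and the counts and medians of all lists, markers included, contain them. Of the neural crest and glia genes, 9 of 19 tested were called up with shGas41-1 and 0 down, among them Dlx5, with 2 counts in each shCon library and 13 to 26 with shGas41-1, and 3 of 17 up and 0 down with shGas41-2, among them the receptor gene Ret (1.16). Over all genes tested, 7.9% were called up with shGas41-1 and 3.96% with shGas41-2. The list's median log2 fold change was 0.99 with shGas41-1 and 0.79 with shGas41-2. Its summed level was 95.5 to 123 CPM in shCon, 116 to 191 with shGas41-1 and 148 to 170 with shGas41-2. In the undifferentiated control cells of EB day 0 the sum was 126 to 139 CPM, above shCon and within the range of shGas41-1. In EBs 10 of 21 were called up, among them Msx1 (6.58), and 4 down, among them Mitf (-3.86), the regulator of pigment cells, and Ngfr (-2.27), where 16.6% of all genes were called up and 14.7% down. Tfap2b, listed at 0 in both day 0 libraries, was at least 4.29-fold higher on day 6, against a floor of 3 counts per library.

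Of the neural plate and progenitor genes, 2 of 17 were called up with shGas41-1, Pax6 (2.43) and Nkx2-2 (2.29), both patterning factors of the neural tube, a share near the 7.9% of all genes. Nkx2-2 was close to the floor in shCon, with a mean of 0.0876 CPM (SD 0.0866) against 0.419 (SD 0.204) with shGas41-1. With shGas41-2 0 of 17 were called by edgeR's quasi-likelihood test, although 4 higher and 1 lower had an unadjusted p under 0.05 and DESeq2 called 1. In EBs 11 of 18 were called up, with Emx2 at least 43.3-fold higher and Fabp7 at 202 and 260 counts after 5 and 0 on day 0, and En2 (-1.94) was called down. Of the neuron genes, 5 of 15 were called up with shGas41-1, among them the proneural factor Neurog1, and 3 of 14 with shGas41-2, including Neurog1 and the neurofilament gene Nefm (1.79), against 7.9% and 3.96% of all genes. Neurog1 had 2, 0 and 2 counts in shCon, 36, 88 and 27 with shGas41-1 and 16 and 26 with shGas41-2. In EBs 6 of 14 were called up, among them Nefm (5.93) and Dcx, at least 38.4-fold higher, and 7 down, among them Tubb3 (-3.64) and Neurod1 (-2.56), and both shares were above those of all genes (16.6% up and 14.7% down). The median log2 fold changes of the neuron genes were 0.07, 0.27 and -0.41 in the 3 comparisons, and those of the progenitor genes 0.57, 0.43 and 2.79.

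Cartilage matrix genes, several of which Sox5, Sox6 and Sox9 are known to activate, showed no common direction. With shGas41-1, 2 of 9 were called up, Comp (1.50) and the collagen gene Col2a1 (1.34), and 1 down, the proteoglycan gene Acan (-1.01). Among all genes tested for this hairpin, the called rises made up 7.9% and the called falls 2.4%. With shGas41-2 Comp (1.66) alone was called of 9 tested, beside 3.96% rises and 0.869% falls among all genes. In EBs 3 of 10 were called up, among them Col9a1, at least 19.2-fold higher, and Matn3 (1.49). Acan (-3.17) and Col11a1 (-1.03) were the 2 called down. The EB shares among all genes were 16.6% for rises and 14.7% for falls.

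**Figure D5:**
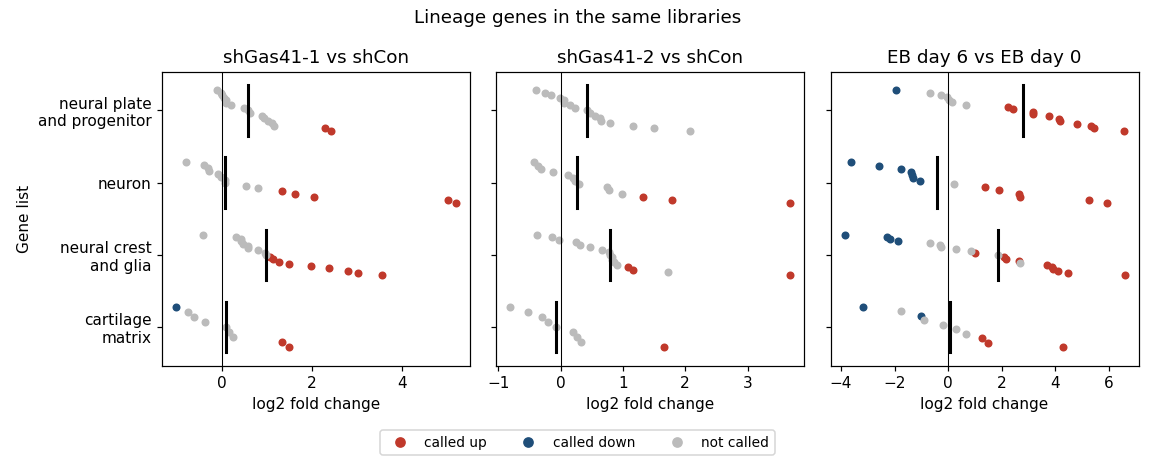
Log2 fold change of each tested gene of the 4 lineage lists (neural plate and progenitor, neuron, neural crest and glia, cartilage matrix) in the 3 comparisons, with red and blue points for genes called up and down, grey for genes not called, black bars for list medians, and genes whose reference libraries were all at 0 placed at their lower bound. Neural crest and glia genes lie mostly right of 0 with the hairpins (median 0.99 and 0.79), and the progenitor genes have their highest median, 2.79, in EBs.

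Markers of other cell types moved beside the Sox genes, and their part in the changes above was not tested. The counts below stand beside 7.9% of all genes called up and 2.4% down with shGas41-1. For shGas41-2 these shares were 3.96% and 0.869%, and for EBs 16.6% and 14.7%. Of 7 ESC markers, 2 were called down with shGas41-1, Klf4 (-1.13) and Esrrb (-1.04), and 0 were called with shGas41-2 by edgeR's quasi-likelihood test (1 higher and 2 lower at an unadjusted p under 0.05, 0 by DESeq2). The summed ESC marker level was 5559 to 6001 CPM in shCon and 4927 to 5801 and 5570 to 5815 with the hairpins. It was 5185 to 5533 CPM on EB day 0 and 2093 to 2224 on EB day 6, and no ESC marker was at 0 in any group. Of the trophoblast markers 2 of 5 tested, Gata3 (4.30) and Cdx2 (2.50), rose with shGas41-1 and 1 of 6, Gata3 (3.26), with shGas41-2. With each hairpin 0 were called down and 1 was lower at an unadjusted p under 0.05. The list's sum was 30.5 to 44.0 CPM in shCon against 22.4 to 27.6 and 23.8 to 26.7 CPM with the hairpins. On EB day 0 it was 19.5 to 31.7 CPM, a range that holds both hairpin ranges. Mesoderm markers gave 0 of 6 up and 2 down with shGas41-1, Tbx6 (-1.42) and Eomes, which only just reached 2-fold, 0 of 6 in either direction with shGas41-2 (1 higher and 2 lower at an unadjusted p under 0.05, 0 by DESeq2), and all 6 rose in EBs, T by 10.4 and Mesp1 by 8.97, with a sum of 1242 to 1797 CPM on day 6 against 10.2 to 10.9 on day 0. Of the endoderm markers 1 of 4 tested, Gata6 (1.76), rose with shGas41-1 and 0 of 4 with shGas41-2 (1 higher at an unadjusted p under 0.05, 0 by DESeq2), and in EBs 4 of 4 rose, among them Gata6 (6.93) and Foxa2 (5.94). Their sum was 1.74 to 2.14 CPM in shCon, 2.47 to 5.16 and 2.55 to 2.56 CPM with the hairpins, 2.20 to 3.30 CPM on EB day 0 and 58.9 to 148 CPM on EB day 6. In EBs 4 of 5 trophoblast markers rose, led by Cdx2 (6.71) and Hand1 (3.88). Fibroblast markers, measured since feeder cells can carry them, were at 7.99 to 13.9 CPM in sum in shCon and at 4.19 to 6.13 and 9.21 to 9.71 with the hairpins. Their sum was 6.17 to 9.05 CPM on EB day 0, and Dcn was at 0 in all shCon libraries. Thy1 (-1.10) was the 1 fibroblast marker of 2 tested that fell with shGas41-1, 0 of 2 were called with shGas41-2 (0 at an unadjusted p under 0.05 and 0 by DESeq2), and Col1a2 (3.66) and Col1a1 (2.05) rose in EBs. Mesoderm and endoderm markers were thus high in the same EBs, and the EB values of the Sox genes are averages over all cells of the EBs.

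Genes whose pattern over the 12 libraries was most like that of a member, by Pearson's r of log2(CPM + 1) among 11969 genes with a mean of at least 1 CPM, were named for the 5 members at that level. These were Shc1, Sfrp2 and Nnt for Sox3 (0.975, 0.967 and 0.966), Ankrd13c, Slc12a2 and Mysm1 for Sox21 (0.943, 0.928 and 0.921), and Mmp2, Palm and Slc52a2 for Sox4 (0.996, 0.994 and 0.989). For Sox11 they were Zyx, Acadl and Soat1 (0.996, 0.995 and 0.994), and for Sox8 Ddhd1, Adipoq and Ripply1 (0.972, 0.948 and 0.947). The libraries fall into groups and the EB day 6 libraries lie far from the rest for Sox3, Sox4 and Sox11, so these values describe the libraries and carry no test.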

How the data were processed

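RNA-seq libraries were prepared by the authors with an unstranded TruSeq kit and mapped to mm9 with TopHat2 2.0.10, and reads were counted per gene with HTSeq, per the submitters' processing notes and the paper's methods. The deposited values are raw counts per gene and library, without normalization, in 3 tables. The authors' log2 fold changes, p-values and FDR in the same tables were not used. The counts of the 3 shCon libraries were identical in both KD tables, and the columns named ESC in the EB table were read as EB day 0. ChIP-seq samples (15) were not analysed here.

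Groups were taken from the labels. The filter filterByExpr of edgeR 4.0.16 (R 4.3.3) removed low genes, with 10 as the minimum count and 15 as the minimum total count. After TMM scaling, edgeR's quasi-likelihood test (glmQLFit, glmQLFTest) was run in 7 comparisons, each on the groups it compares, with Benjamini-Hochberg adjustment over all genes tested. A gene was called at a log2 fold change of 1 or beyond in either direction together with an FDR no higher than 0.05. SE values are the log2 fold change divided by the root of F. CPM values are counts over the library total, RPKM values use the union of exons in the GENCODE annotation of mm9, and promoters come from RefSeq (GRCm38.p6). The fits were tested on simulated data. Library totals were 59224537 to 81524773 counts, and intervals on counts cover counting error only. The shGas41-1 table lists 1124 genes that the shGas41-2 table does not, all with 0 counts in shCon.

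The members and gene lists were chosen with earlier results of these data known, so no p-value was adjusted over a list alone. Named genes were all members, Yeats4, the other Sox genes, and from each other list up to 2 called genes per direction with the largest change, apart from 2 genes that are not reported here. Alternatives were DESeq2 1.42.0, its size factors in edgeR, library size alone, no filter on low counts, glmTreat, the replicate number as a block, all 8 ESC libraries in 1 fit, TMM-scaled CPM, the longest transcript as gene length, and each library left out in turn.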

Additional observations from a re-analysis of the deposited data

Results flagged for a closer look

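The response to each hairpin was tested against the response of the same Sox gene in EBs (edgeR's quasi-likelihood test of the difference between the log2 fold changes), and 7 members with each hairpin were singled out because that difference was called. With shGas41-1 the difference, hairpin response minus EB response, was -2.07 for Sox3, 3.65 for Sox21, -2.59 for Sox4, -3.90 for Sox11, 2.50 for Sox8, -2.52 for Sox9 and -1.93 for Sox10 (adjusted p between 1.29e-06 and 0.0409). With shGas41-2 it was -2.12 for Sox3, 2.79 for Sox21, -2.64 for Sox4, -4.00 for Sox11, 2.20 for Sox8, -3.39 for Sox9 and -2.21 for Sox10. The values of Sox21 include the gap of 1.57 between EB day 0 and shCon, the control sets of the 2 responses. Of the 7 members, Sox4, Sox11 and Sox21 had log2 fold changes of opposite sign in shGas41-1 cells and EBs, and so did Sox8, whose EB value did not pass the test. The shGas41-1 values of Sox4 and Sox11 did not pass the test against shCon either. The hairpin values share the shCon libraries, and the EB values share the EB libraries, so the differences for the hairpins are not independent. Such a difference was found in 32.9% and 32.2% of all genes tested. For Sox9 and Sox10 the calls were near the threshold and were lost when single libraries were left out: Sox9 with shGas41-1 without any of 7 libraries (adjusted p between 0.0524 and 0.170), Sox10 with shGas41-1 without any of 6 (between 0.0522 and 0.128), Sox9 with shGas41-2 without either of 2 (between 0.0565 and 0.0662) and Sox10 with shGas41-2 without any of 3 (between 0.0824 and 0.0855).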

How the results depend on the processing

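The member counts called up and down kept within 1.5 times their value under DESeq2, under DESeq2's size factors, with library size alone, without the filter and with the replicate block. With glmTreat, which tests whether a change exceeds 2-fold, 0 members were called up with shGas41-1, 0 with shGas41-2 and 0 on EB day 0 against shCon, and 2 differences below 0 remained called between shGas41-1 and EB. With all 8 ESC libraries in 1 fit, 1 member was called up with shGas41-2, as Sox3 missed the threshold (adjusted p = 0.0834). Leaving out each library in turn gave 0 to 2 members up with shGas41-2, 0 to 1 on EB day 0 against shCon, and 3 to 5 below 0 in the differences from EB for each hairpin. Over all genes, glmTreat called 281 up and 31 down with shGas41-1, 7 and 1 with shGas41-2, 2073 and 1764 in EBs, 1 and 0 between EB day 0 and shCon, and 2089 and 1637 (shGas41-1) and 2127 and 1835 (shGas41-2) in the differences from EB. Without the filter, 124 and 50 genes were called between EB day 0 and shCon, where the main counts were 83 and 22. Leaving out libraries gave 905 to 1510 up and 290 to 549 down with shGas41-1, 269 to 1174 and 18 to 293 with shGas41-2, 2041 to 2946 and 1669 to 3027 in EBs, and 1 to 210 and 0 to 112 between EB day 0 and shCon. Scaling by library size alone gave 669 up and 246 down with shGas41-2.

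Direction changed only for values that were not called. Without single libraries, Sox6 with shGas41-1 ranged from -0.39 to 0.34, and between the hairpins Sox3 ranged from -0.28 to 0.32, Sox4 from -0.065 to 0.24, Sox6 from -0.99 to 0.088 and Sox10 from -0.071 to 0.77. Between EB day 0 and shCon, Sox11 ranged from -0.29 to 0.20 (0.00098 with library size alone), Sox6 from -0.064 to 0.22, Sox8 from -0.028 to 0.51 and Sox10 from -0.55 to 0.11, and Sox5 in the difference of shGas41-2 from EB ranged from -0.50 to 0.074. The cause was not tested.

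Replicate numbers were not taken to pair the libraries. Correlations of the deviations of same-numbered libraries from their group means were -0.19, 0.21 and -0.69 for shGas41-1 and shCon, where only replicate 2 of shCon correlated best with the shGas41-1 library of its own number. They were 0.57 and 0.53 for shGas41-2 and shCon and 0.12 for EB day 6 and day 0, each over only 2 shared numbers, and -0.05 and -0.11 for EB day 0 and shCon. With the replicate number as a block, Sox3 with shGas41-1 was no longer called (log2 fold change 1.12, adjusted p = 0.0514), the difference of shGas41-1 from EB was lost for Sox9 (-2.48, adjusted p = 0.0664) and gained for Sox6 (-1.89, adjusted p = 0.0432), and no other call of a member changed. The block gave 1019 genes up and 302 down with shGas41-1 (1444 and 438 without it), 1122 and 212 with shGas41-2 (728 and 160 without it), and 203 and 96 between EB day 0 and shCon. With library size alone Sox3 with shGas41-1 also missed the threshold (adjusted p = 0.0529). Genes with a few counts, Sox5, Sox6, Sox9 and Sox10 in undifferentiated cells, are limited by depth and by groups of 2 or 3 libraries. Places in the order by RPKM moved for 7 values when the longest transcript set the length.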
